A study of Mus musculus with 8 samples.

Results

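The genes described here encode the digestive enzymes and other secretory products of pancreatic acinar cells. The list held 30 gene symbols, chosen by name but with earlier results of these data known. A gene was kept if a probe set of the array (a group of short probes for 1 transcript) was annotated with its symbol alone, and the probe set with the highest mean over the 8 arrays stood for the gene. This left 23 genes of the 16396 tested in the series, and all 23 passed the filter on dim probe sets. Of the other 7, Amy2a5, Prss1, Try4 and Try5 shared their probe sets with other symbols and Amy2b, Try10 and Pnlip had none in the annotation used. Those 7 were not analysed here.

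RNA came from pancreatic islets that were laser-captured from NOD.Scid mice, a diabetes-prone strain whose scid mutation leaves it without mature T and B cells of its own. The untreated mice gave 1 array (day 0). Mice of the diabetogenic arm received CD4+ T cells carrying the transgenic BDC2.5 receptor, which recognises a beta cell antigen, and gave 1 array each on days 3, 4 and 8 after transfer. Mice of the protected arm also received anti-Ifng, which neutralises interferon-γ, 1 day before and 2 days after transfer, and gave 1 array each on days 3, 4, 5 and 8. Each array held RNA pooled from 5 mice, so no spread between mice could be measured, and precision is limited by how few arrays there are. No array of mice given a control antibody was analysed here, so neutralisation and antibody injection cannot be told apart.

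Acinar cells make up most of the pancreas and surround the islets. They store enzymes as inactive precursors (zymogens) in granules and release them into the ducts. The genes are switched on together by the PTF1 complex, in which Ptf1a and a common E protein bind an E-box (here CACCTG) and RBPJL binds a nearby TTTCCC box. Beta cells do not store these enzymes, so in captured islets the transcripts are usually read as a sign of exocrine tissue at the edge of the cut.

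The promoters of the 4 measured genes that held both boxes in the 250 bases before the start site are shown, because the genes of the list are compared below as a set. Whether they share this regulator here was not tested. They are RefSeq sequences of build GRCm38.p6, written 5′ to 3′ on the gene's strand. Capitals mark each CACCTG or TTTCCC on either strand (CAGGTG and GGGAAA on the opposite one).
Cela1 (chr15:100687921-100688170, minus strand): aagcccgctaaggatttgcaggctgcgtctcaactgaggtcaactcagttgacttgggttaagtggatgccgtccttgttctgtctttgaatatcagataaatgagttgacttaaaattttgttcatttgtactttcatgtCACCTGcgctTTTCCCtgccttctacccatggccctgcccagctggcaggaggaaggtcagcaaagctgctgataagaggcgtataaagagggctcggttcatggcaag
Prss2 (chr6:41521526-41521775, plus strand): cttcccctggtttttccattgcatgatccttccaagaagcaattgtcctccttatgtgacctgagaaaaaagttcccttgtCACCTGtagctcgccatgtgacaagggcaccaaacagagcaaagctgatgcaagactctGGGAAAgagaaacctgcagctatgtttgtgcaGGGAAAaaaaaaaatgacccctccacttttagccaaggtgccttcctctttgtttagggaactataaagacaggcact
Cel (chr2:28563404-28563653, minus strand): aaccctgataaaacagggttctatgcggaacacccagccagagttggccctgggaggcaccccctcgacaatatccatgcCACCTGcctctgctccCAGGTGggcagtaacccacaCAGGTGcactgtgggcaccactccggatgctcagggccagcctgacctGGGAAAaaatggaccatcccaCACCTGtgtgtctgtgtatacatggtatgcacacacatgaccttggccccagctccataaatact
Cela2a (chr4:141826006-141826255, minus strand): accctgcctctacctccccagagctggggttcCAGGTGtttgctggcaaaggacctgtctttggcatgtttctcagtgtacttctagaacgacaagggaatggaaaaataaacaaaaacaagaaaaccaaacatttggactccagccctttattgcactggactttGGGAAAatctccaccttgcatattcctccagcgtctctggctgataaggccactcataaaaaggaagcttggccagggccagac
In Cela1 the boxes began 109 and 99 bases before the start site. They lay further apart in Cela2a (218 and 84) and in Prss2 (CACCTG at 169, TTTCCC at 110 and 78). In Cel, CACCTG began 170, 154, 134 and 65 bases before the start site and TTTCCC 86. Of the 23 genes, 19 had a promoter in the table. CACCTG was present in 10 of these 19 genes and in 17.2% of all 32851 promoter windows of the same length. TTTCCC was present in 6 of 19 genes and in 21.9% of all windows, and both in 4 of 19 genes and in 3.61% of all windows. A match is a string of letters, and binding was not measured.

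The arrays themselves differed. Spiked hybridisation controls had a median intensity of 1.48 to 2.29 on the untreated and both day 3 arrays and of 551 to 1712 on the 5 later arrays. The share of probe sets reaching 8 times their array's median was 3.09% to 5.34% on the untreated, both day 3, protected day 5 and protected day 8 arrays. It was 0.850% in diabetogenic and 2.23% in protected islets of day 4, and 2.00% in diabetogenic islets of day 8. The 3′ to 5′ ratio of Actb, which rises with RNA degradation, ran from 1.86 to 24.2 over the 8 arrays. Ins2, the insulin transcript that defines beta cells, stood between 3409 and 6359 on every array. The other beta cell markers were not as steady: the median of the 10 tested went from 147 untreated to 71.0, 2.95 and 4.40 in diabetogenic and 69.7, 8.26, 14.3 and 10.4 in protected islets. Iapp, which encodes the peptide amylin of beta cell granules, was at 99.7 in diabetogenic against 1143 in protected islets on day 4.

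The acinar transcripts were bright in untreated islets, at a median intensity of 75.4 (a value on the authors' linear scale, without unit). The median in diabetogenic islets was 60.5, 9.51 and 5.02 (days 3, 4 and 8). In protected islets it was 54.0, 89.7, 22.7 and 22.5 (days 3, 4, 5 and 8). The untreated and day 3 arrays and the protected array of day 4 were therefore high, both later diabetogenic arrays low, and the protected arrays of days 5 and 8 between them. In these bulk samples, fewer captured acinar cells and less RNA per cell cannot be told apart.

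**Figure D1:**
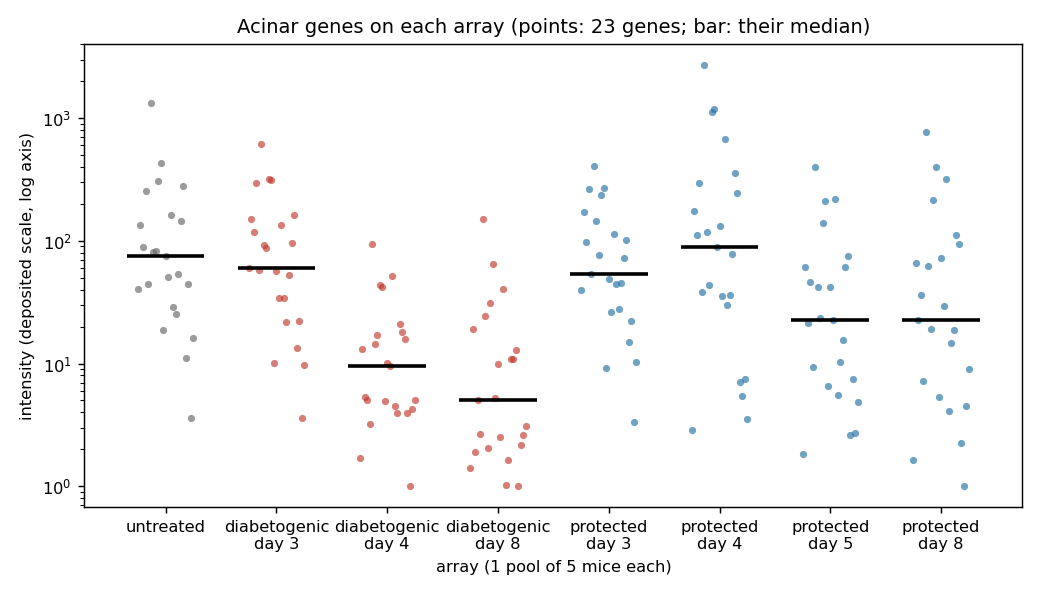
Intensity (deposited linear scale, drawn on a log axis) of the 23 acinar genes on each of the 8 arrays, with grey for untreated, red for diabetogenic and blue for protected islets; each point is 1 gene and the bar is the median of the 23. The bars of the diabetogenic arrays of days 4 and 8 lie at 9.51 and 5.02, against 54.0 to 89.7 on the untreated, day 3 and protected day 4 arrays.

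A rank within the array does not depend on the array's overall brightness. The median acinar gene was brighter than 97.6% of all genes tested on the untreated array, than 97.2%, 86.3% and 51.5% in diabetogenic islets of days 3, 4 and 8, and than 96.6%, 98.8%, 89.7% and 92.0% in protected islets of days 3, 4, 5 and 8. Against another reference, the median of all probe sets on the array, 11 of the 23 genes were below on the diabetogenic array of day 8, 3 each on the diabetogenic day 4, protected day 5 and protected day 8 arrays, 1 on the protected day 4 array, and 0 on the untreated and day 3 arrays.

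The first comparison set the arms against each other on matched days, to ask what differed when interferon-γ was neutralised. On day 3 no acinar gene differed by 2-fold between the arms, and the differences ran from −0.64 to 0.67 on the log2 scale, diabetogenic minus protected. On day 4, 19 of 23 genes were at least 2-fold lower in diabetogenic islets, 15 of them at least 4-fold, with a median of −2.92. On day 8, 15 of 23 were at least 2-fold lower and 12 at least 4-fold, with a median of −2.16. The day 8 median depended on the probe sets: it was −1.26 with the mean of a gene's probe sets (13 genes at least 2-fold lower) and −1.10 with probe sets without an x or s suffix (12 lower and 1 higher by 2-fold). On the deposited scale no acinar gene was 2-fold higher in diabetogenic islets on days 3, 4 or 8, while after quantile normalization 2 were on day 3. Lower by any amount in diabetogenic islets were 6, 22 and 22 of 23 genes on days 3, 4 and 8, against 51.8%, 57.2% and 55.2% of all genes, and 5 genes on all 3 days, against 20.1%. All differences and folds are on the log2(intensity + 2.155) scale, on which dim genes show less than their true change, and single days have 1 array per arm and no test.

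The background was high on the later days. At least 2-fold lower in diabetogenic islets were 0.506% of all 16396 genes on day 3, 14.2% on day 4 and 14.1% on day 8. Among the 1483 genes with a mean intensity of 20 or more, a limit chosen after the data were seen, it was 1.28%, 64.1% and 28.5%. On day 4 most bright genes were thus lower in the diabetogenic array, which held the fewest bright probe sets, and the part of array brightness in the acinar values of that day was not tested. The 3′ to 5′ ratios also differed between the arms on day 4, at 2.25 in diabetogenic and 9.24 in protected islets for Actb and 2.78 and 10.5 for Gapdh, and their part was not tested. The medians of those bright genes were −0.08, −1.30 and −0.56 on days 3, 4 and 8, against 0.20, −2.92 and −2.16 for the acinar genes. After quantile normalization, which gives every array the same distribution, 17 and 15 acinar genes were at least 2-fold lower on days 4 and 8, with medians of −2.17 and −1.96, as were 2314 and 2606 of all 16396 genes. After cyclic loess normalization 16 and 13 were, with medians of −1.53 and −1.61, as were 1100 and 1662 of all genes. At least 2-fold lower on both days were 14 of 23 acinar genes, 3.56% of all genes and 17.7% of the bright ones. The share of all genes at least 4-fold lower is not given here, so the 4-fold counts above have no background.

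**Figure D2:**
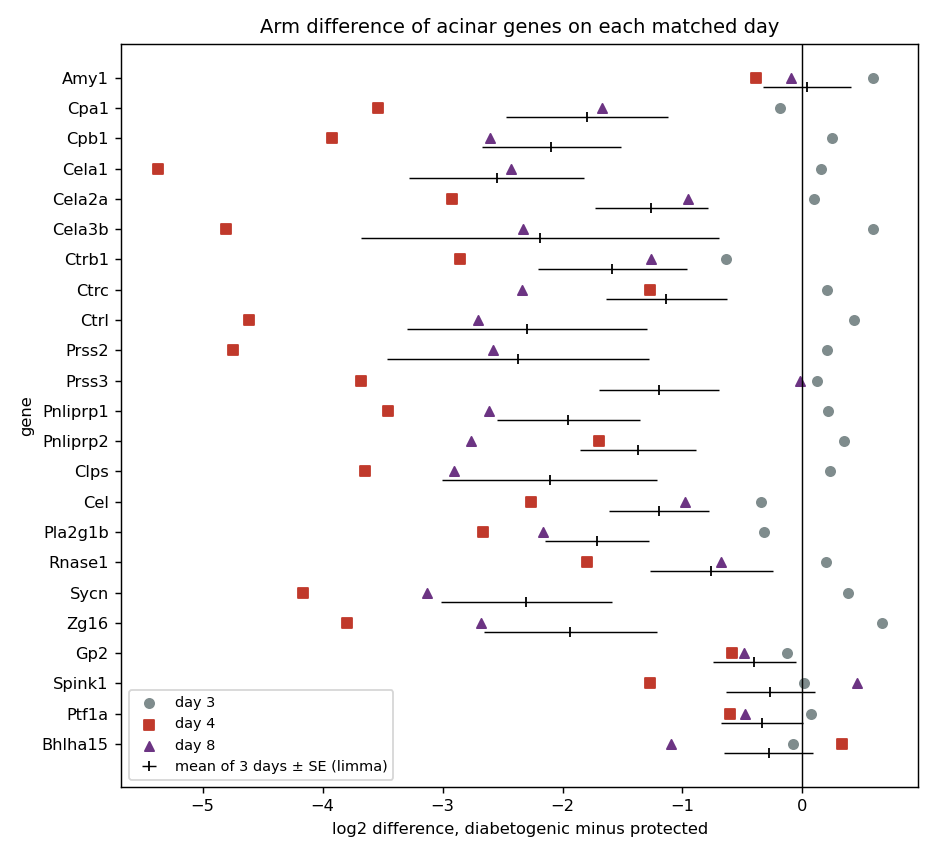
Log2 difference between the diabetogenic and the protected array for each of the 23 acinar genes on day 3 (grey circles), day 4 (red squares) and day 8 (purple triangles), with the mean of the 3 days and its limma standard error as a black bar. Day 3 lies between −0.64 and 0.67, while 19 genes on day 4 and 15 on day 8 lie at −1 or lower.

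Over the 3 matched days, with day as a block, none of the 23 genes passed limma's test at an adjusted p of 0.05 (adjusted p from 0.221 to 0.986), where 0.104% of all genes passed in either direction and 0.0915% as lower. The estimate was negative for 22 of 23 acinar genes and for 56.8% of all genes, with medians of −1.59 and −0.07. Among the 1483 genes with a mean intensity of 20 or more it was negative for 1399, with a median of −0.68. The sign was thus shared by most bright genes. The acinar median was −0.83 after cyclic loess normalization and −0.95 without the day 4 pair. At an unadjusted p under 0.05 there were 16 of the 23 and 1461 of the 16396 (8.91%). The count turned on which days entered. Without the day 3 pair 7 genes passed in limma (Cela1, Zg16, Sycn, Cpb1, Pnliprp1, Pnliprp2 and Pla2g1b), without the day 4 pair 3 did (Cela3b, Prss2 and Clps), and without the day 8 pair 0 did. Of all 16396 genes, 61, 22 and 20 passed as lower without the pair of day 3, 4 and 8. With the filter at 4 arrays Cpb1 and Pla2g1b passed, among 36 of 12829 genes. The labels do not say whether the arms of a day were processed side by side.

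The carboxypeptidases trim amino acids from the carboxyl ends of peptides. Cpa1, which takes aliphatic and aromatic residues, stood at 136 on the untreated array, 152, 13.3 and 19.2 in diabetogenic islets of days 3, 4 and 8, and 173, 177, 61.1 and 65.7 in protected islets of days 3, 4, 5 and 8. The diabetogenic arrays of days 4 and 8 were below all the others. Cpb1, which takes basic residues, was 15.2-fold lower in diabetogenic islets on day 4 (5.30 against 111) and 6.08-fold lower on day 8 (1.90 against 22.5). The estimates over 3 days were −1.80 ± 0.68 (SE) for Cpa1 and −2.09 ± 0.58 for Cpb1.

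The largest single-day difference in the list was among the elastases. Cela1 stood at 253 untreated, at 298, 5.08 and 5.02 on diabetogenic days 3, 4 and 8, and at 267, 298, 46.5 and 36.5 on protected days 3, 4, 5 and 8. It was 41.5-fold lower in diabetogenic islets on day 4, and protected day 4 stood level with diabetogenic day 3. The probe set used for Cela3b stood at 1341 untreated, at 615, 94.7 and 151 in the diabetogenic arm and at 408, 2710, 403 and 772 in the protected arm, in the same order of days. Over the days the arms of Cela3b overlapped, since diabetogenic day 3 lay within the protected range. The same held for other bright genes, among them Cpa1, Cela1, Ctrl, Prss2, Clps and Zg16. Diabetogenic days 4 and 8 of Cela3b were below all other arrays. Cela2a was 7.56-fold lower on day 4 (3.22 against 38.5) and 1.94-fold lower on day 8 (2.66 against 7.19). The estimates over 3 days were −2.55 ± 0.73 for Cela1, −2.18 ± 1.49 for Cela3b and −1.26 ± 0.47 for Cela2a.

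The chymotrypsins cleave after large hydrophobic residues. Ctrl, the chymotrypsin-like protease, stood at 308 untreated, at 321, 43.7 and 31.4 on diabetogenic days 3, 4 and 8, and at 238, 1122, 139 and 216 on protected days 3, 4, 5 and 8. The protected array of day 4 was 3.62-fold above untreated, and the diabetogenic arrays of days 4 and 8 were below all others. Ctrb1 was 7.25-fold lower in diabetogenic islets on day 4 and 2.39-fold lower on day 8. Ctrc, which degrades trypsinogen, was lower by 2.41-fold on day 4 (17.0 against 44.0) and by 5.05-fold on day 8 (2.04 against 19.0), so here the later day differed more. The estimates over 3 days were −2.30 ± 1.0 for Ctrl, −1.59 ± 0.62 for Ctrb1 and −1.13 ± 0.51 for Ctrc.

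The trypsins activate the other zymogens once they reach the gut. The probe set used for Prss2 stood at 429 untreated, at 313, 42.0 and 65.3 in the diabetogenic arm and at 271, 1182, 213 and 400 in the protected arm. Diabetogenic days 4 and 8 were below every other array, and protected day 4 was 2.75-fold above untreated. Prss3 stood at 18.9 untreated and at 89.7 on the protected array of day 4, and between 4.99 and 10.2 on the other 6 arrays. The mouse trypsin genes lie in a row on 1 chromosome and resemble each other, so probe sets for Prss2 and Prss3 may also read their neighbours. The estimates over 3 days were −2.37 ± 1.10 for Prss2 and −1.20 ± 0.50 for Prss3.

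Lipids are digested by lipases and phospholipases. Clps encodes colipase, the cofactor that anchors pancreatic lipase to fat droplets. The probe set used for Clps stood at 162 untreated and at 134, 52.0 and 40.7 on diabetogenic days 3, 4 and 8. On protected days 3, 4, 5 and 8 it stood at 114, 678, 219 and 318. Among the probe sets used for the acinar genes, only this 1 was above untreated on protected days 4, 5 and 8 alike. The other Clps probe set stood at 36.93 untreated and at 56.16, 22.9 and 19.98 on protected days 4, 5 and 8. That probe set was thus below untreated on protected days 5 and 8. The lipase-related gene Pnliprp1 was at −3.46 (log2 difference) in diabetogenic against protected islets on day 4 (10.03 against 132) and 6.13-fold lower on day 8 (9.99 against 72.3). Pnliprp2 was 3.24-fold and 6.79-fold lower on those days. Cel, the bile salt-activated lipase, was 4.80-fold lower on day 4 (4.49 against 29.8) and 1.97-fold lower on day 8, where both arrays were dim (1.02 against 4.11). Pla2g1b, the pancreatic phospholipase A2, was 6.32-fold and 4.47-fold lower. Its estimate of −1.71 ± 0.44 had the smallest adjusted p of the list in limma (0.221), but its 3 other probe sets were dim on all arrays (1.03 to 5.94) and gave −0.13, 0.50 and 0.07.

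Among the remaining secreted products, Rnase1, the pancreatic ribonuclease, stood at 53.7 untreated, at 52.7, 21.1 and 10.9 on diabetogenic days 3, 4 and 8, and at 45.6, 78.8, 15.5 and 18.7 on protected days 3, 4, 5 and 8. Its arms overlapped, since protected days 5 and 8 were below diabetogenic day 4. Zg16, a lectin that helps to pack the granules, stood at 279 untreated, at 162, 15.8 and 13.0 in the diabetogenic arm and at 101, 248, 74.8 and 94.5 in the protected arm. Both later diabetogenic arrays were low, as for Sycn (syncollin, a granule membrane protein), which was 17.9-fold lower in diabetogenic islets on day 4 (18.0 against 359) and 8.75-fold lower on day 8 (10.8 against 111). Gp2, the main glycoprotein of the granule membrane, was dim and differed by less than 2-fold on each of the 3 days. The estimates over 3 days were −0.76 ± 0.51 for Rnase1, −1.94 ± 0.72 for Zg16, −2.30 ± 0.71 for Sycn and −0.40 ± 0.35 for Gp2.

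Amy1 and Spink1 departed from the rest in the protected arm. Amy1, the salivary-type amylase gene, stood at 40.4 untreated, at 60.5 and 39.5 on diabetogenic and protected day 3, and between 1.40 and 2.89 on all 5 later arrays. Spink1, the inhibitor that blocks trypsin within the granule, stood at 44.1 untreated, at 22.4 and 22.1 on day 3, and at or below 7.43 on the 5 later arrays. Protected day 4 was 8.43-fold below untreated for Amy1 and 6.07-fold below for Spink1, while 15 of the 23 genes were above the untreated level there. The median log2 difference of all genes tested from untreated was −0.13 on that array. The levels of both divided along the same line as the spiked controls, and the part of array processing in them was not tested. Their arm estimates were 0.04 ± 0.37 and −0.27 ± 0.37.

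The transcription factors were near the lower end of the scale. Ptf1a, the subunit of PTF1 found in acinar cells, stood between 2.63 and 7.55 on all arrays, with the highest value on protected day 4. Bhlha15 (Mist1), which drives granule maturation, stood at 16.1 untreated, at 9.64, 5.02 and 3.09 in diabetogenic islets and at 10.3, 3.55, 4.87 and 9.08 in protected islets, so that the arms overlapped. The estimates over 3 days were −0.33 ± 0.34 for Ptf1a and −0.28 ± 0.37 for Bhlha15.

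Other probe sets allowed a partial check. Of the 23 genes, 8 had more than 1 probe set, and of their 15 other probe sets 11 were lower in diabetogenic islets in the mean of the 3 days and 10 at least 2-fold lower on day 4. For Cela3b the 3 others gave −1.09 to −2.71, for Prss2 −1.23 to −2.67, and the other of Sycn gave −2.27. Those of Pnliprp2 and Clps gave −0.74 and −1.36, and the brighter of the pair for Zg16 gave −1.48. The 4 that were not lower belonged to Pla2g1b, Zg16 and Bhlha15 and had mean intensities of 2.44 to 6.51. The used probe sets of Cela3b, Prss2, Pnliprp2, Pla2g1b and Zg16 carry the suffix x, which marks probes that may match other transcripts.

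The next comparison set each arm against untreated islets. In diabetogenic islets of days 4 and 8, 22 of 23 acinar genes were at least 2-fold lower than on the untreated array, with medians of −2.67 and −3.13, against 26.5% and 23% of all genes. The exception was Ptf1a on both. The medians of the 1483 genes with a mean intensity of 20 or more were −2.38 and −1.01 on these arrays. Those of the 10 tested beta cell markers were −3.84 and −4.04. On day 4 the acinar median was thus close to that of bright genes. After cyclic loess normalization the count on diabetogenic day 4 was 6. On day 3, 1 gene in the diabetogenic arm (Cela3b) and 2 in the protected arm (Cela3b and Zg16) were at least 2-fold lower, against 1.27% and 1.11% of all genes. In the protected arm, 3 genes were at least 2-fold lower on day 4 (Amy1, Spink1 and Bhlha15), 19 on day 5 and 12 on day 8, against 20.9%, 10.4% and 15.2% of all genes. At least 2-fold higher were 0 of 23 genes in diabetogenic islets of days 3, 4 and 8, against 2.9%, 10.1% and 14.8% of all genes, and 0 in protected islets of days 3, 5 and 8, against 2.22%, 9.91% and 9.94%.

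On the deposited scale, protected day 4 was the 1 array on which acinar genes were at least 2-fold above untreated. After cyclic loess normalization there were 10 on that array and 2 on diabetogenic day 4, and after quantile normalization 7 and, on protected day 3, 1. On the deposited scale they were Prss3 (4.35-fold), Clps (4.13-fold), Ctrl (3.62-fold), Prss2 (2.75-fold), Sycn (2.44-fold) and Cela3b (2.02-fold), 6 of 23 genes against 10.3% of all genes. The size depended on the probe set. Other probe sets gave log2 differences of 0.58 for Clps, 0.68 for Sycn, 0.66 to 1.26 for Cela3b and 0.99 to 1.19 for Prss2. Cpa1 (1.29-fold), Cpb1 (1.24-fold), Cela1 (1.18-fold) and Cel (1.03-fold) were closer to untreated on the same array, and Cela2a was 1.16-fold lower. From protected day 4 to day 5, 16 of 23 genes were at least 2-fold lower, with a median of −1.62, against 7.48% of all genes and a median of 0.21. From day 5 to day 8 of this arm, 15 of 23 genes were higher, with a median of 0.33 and a range from −1.60 (Spink1) to 0.93 (Cela3b). The share of all genes higher in this step is not given here. The median intensity of all genes tested was 5.29 on protected day 5 and 5.08 on protected day 8.

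**Figure D3:**
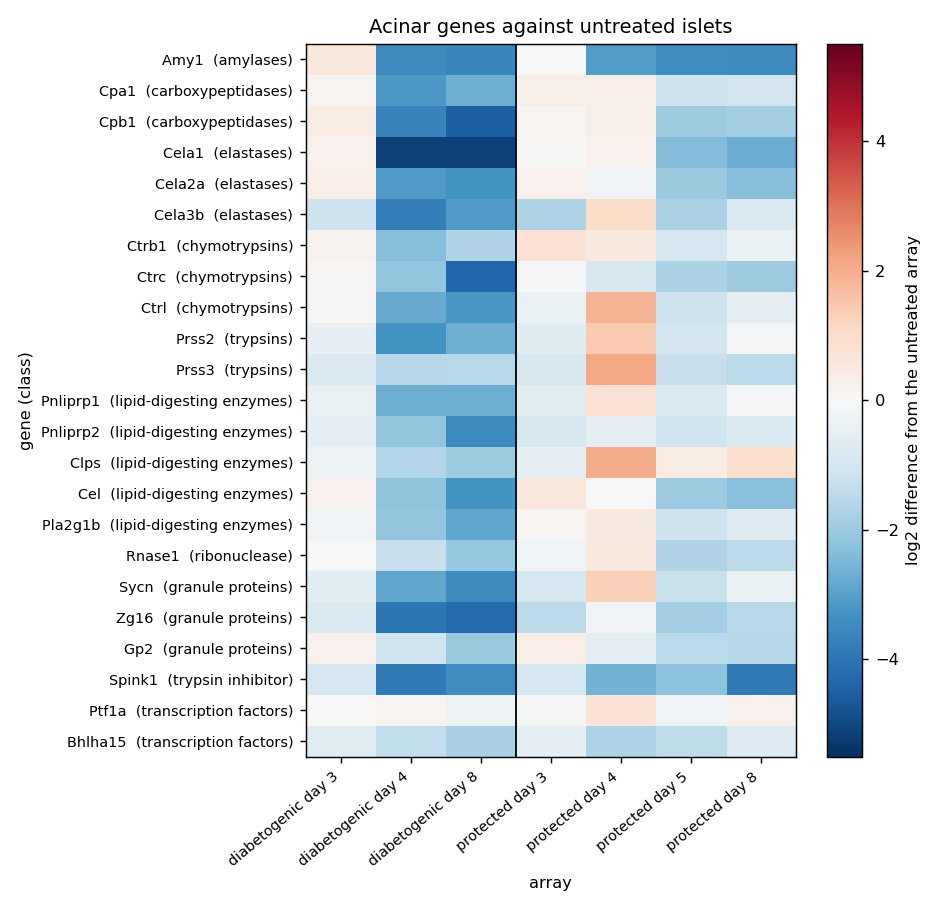
Log2 difference of each of the 23 acinar genes (rows, with their class) from the untreated array on the 7 arrays of injected mice (columns), in red where higher and blue where lower. The diabetogenic columns of days 4 and 8 are at −1 or lower for all genes but Ptf1a, and the protected column of day 4 is reddest for Prss3, Clps, Ctrl, Prss2, Sycn and Cela3b and bluest for Amy1, Spink1 and Bhlha15.

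The 3 groups were then fitted together, with the single untreated array taken to scatter as the days of an arm do. In that fit 0 of 23 genes passed in limma in either arm, as did 0% of all genes. At an unadjusted p under 0.05 there was 1 of 23 in each arm, against 442 (2.70%) and 365 (2.23%) of all genes in the diabetogenic and protected arm. It was Spink1, with −2.74 ± 1.09 in the diabetogenic and −2.42 ± 1.06 in the protected arm (adjusted p = 0.887 and 0.9998 in limma). Negative were 23 and 20 of 23 estimates in the diabetogenic and protected arm, against 55.6% and 53% of all genes. The median estimates were −1.97 and −0.80, against −0.10 and −0.05 over all genes. The comparisons share the untreated array, so the arms' values here are not independent. The untreated and day 3 arrays also stood on the other side of the split in spiked controls from all later arrays, so time after transfer and that split cannot be told apart, except that day 3 lies on the untreated side.

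The change with time was fitted over the 7 arrays of injected mice. All 23 slopes were negative, as were 50.7% of all genes' slopes, with a median of −0.32 per day (−0.16 without diabetogenic day 3). The median over all genes was −0.0019 per day. In limma 0 of 23 passed (smallest adjusted p = 0.406, with 0% of all genes passing), and 9 of 23 had an unadjusted p under 0.05, as did 9.07% of all genes. The steepest were Cela1 (−0.69 ± 0.25 per day), Cpb1 (−0.60 ± 0.21), Cel (−0.58 ± 0.15) and Ctrc (−0.57 ± 0.17). No difference in slope between the arms was detected: 0 of 23 genes and 0% of all genes passed in limma, 0 of 23 and 326 of 16396 had an unadjusted p under 0.05. The difference in slope was negative for 19 of 23 genes and 52.8% of all genes, with a median of −0.23 per day, but turned to 0.11 without diabetogenic day 3 and to 0.20 without protected day 8, and was −2.27 without diabetogenic day 8.

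Other acinar genes were mostly dim and differed less. Of 19 listed, 16 were tested and 0 passed any of the 5 fits in limma. Their median difference on days 3, 4 and 8 was −0.02, −0.19 and −0.17, and 11 of 16 had a negative estimate over the 3 days. Dmbt1, a secreted scavenger-receptor protein, stood at 47.5 untreated, at 30.9, 2.37 and 6.62 in diabetogenic islets and at 30.4, 76.8, 29.6 and 59.2 on protected days 3, 4, 5 and 8 (−2.30 ± 0.55, adjusted p = 0.137 in limma). Its arms were level on day 3 and stood apart on days 4 and 8. Klk1, a kallikrein gene named here after its values were seen, was higher in diabetogenic islets on day 3 (27.3 against 15.9) and was at 1.83 and 1.57 on diabetogenic days 4 and 8 and at 28.6 and 18.6 on protected ones. Xbp1, the regulator of the secretory endoplasmic reticulum that beta cells also express, was at 19.98 in diabetogenic against 199 in protected islets on day 4 and 68.4 against 109 on day 8. Rbpjl, the acinar subunit of PTF1, also named after its values were seen, was dim on all arrays (2.08 to 5.5).

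As a gauge of exocrine tissue, the summed intensity of the 23 genes was 3722 untreated. It was 2764, 394 and 410 in diabetogenic islets of days 3, 4 and 8, and 2309, 7512, 1437 and 2288 in protected islets of days 3, 4, 5 and 8. It made up 1.04% to 1.65% of the summed intensity of all genes on the untreated and day 3 arrays. Later it was 0.357% and 0.227% in diabetogenic islets (days 4 and 8), and 3.98%, 0.616% and 1.11% in protected islets (days 4, 5 and 8). Protected day 4 thus held the most acinar signal of the 8 arrays and diabetogenic days 4 and 8 the least, by this measure and by rank alike. The sum on protected day 4 came mostly from Cela3b (2710), Prss2 (1182), Ctrl (1122) and Clps (678).

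The islet cell lists followed different courses. The 5 tested markers of other islet endocrine cells differed between the arms on day 4 nearly as the acinar genes did, with a median of −2.67 and 4 of 5 at least 2-fold lower in diabetogenic islets. Their sum was 178 in diabetogenic against 1693 in protected islets on that day, and Gcg, the glucagon transcript of alpha cells, stood at 52.8 against 895. On day 8 their median was −0.07 and their sum 1077 against 1257. The 7 tested pan-endocrine genes, such as the granule proteins Chgb and Scg2, had a summed intensity of 2444, 2590 and 2716 on the untreated, diabetogenic day 3 and protected day 3 arrays and of 65.2 to 557 on the 5 later ones. On protected day 4 they summed to 368 while the acinar sum was at its highest. The acinar sum was 1.52 times the pan-endocrine sum untreated. It was 6.05 and 20.4 times that sum on diabetogenic and protected day 4, and 1.56 and 7.16 times on day 8. By this ratio diabetogenic day 4 was not among the lowest arrays. The median acinar gene lay 1.88 to 2.40 log2 units below the median pan-endocrine gene on the untreated and day 3 arrays. In diabetogenic islets it lay 0.49 above on day 4 and 0.45 below on day 8, and in protected islets 2.16 above on day 4, 0.51 below on day 5 and 1.11 above on day 8. Between the arms, this within-array measure differed by 1.67 on day 4 and 1.55 on day 8, with diabetogenic lower, and by 0.52 on day 3, with diabetogenic higher.

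**Figure D4:**
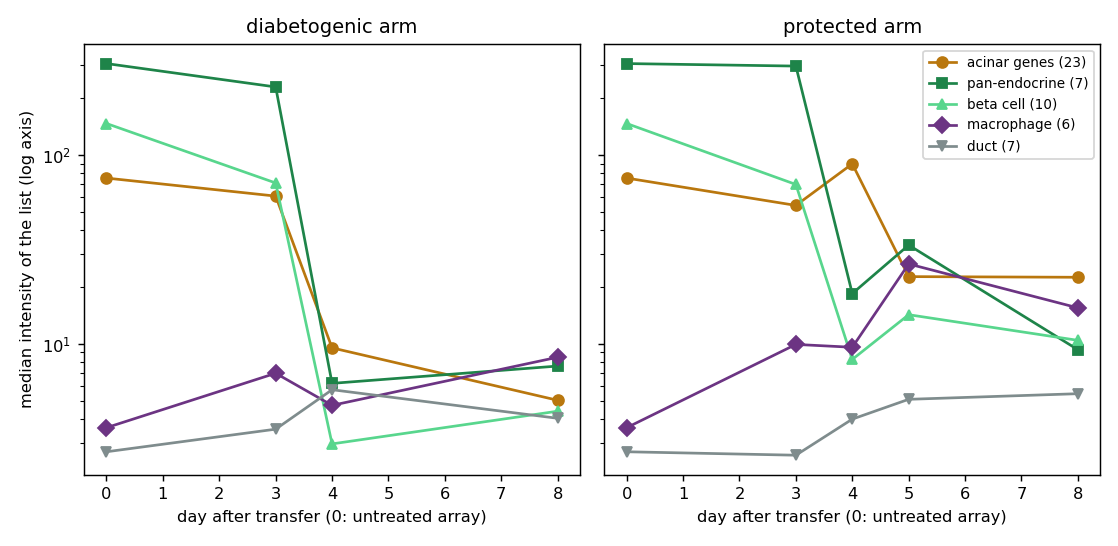
Median intensity (log axis) of the acinar genes and of 4 marker lists against the day after transfer in each arm, with the shared untreated array at day 0; numbers in the key are genes tested. Between days 3 and 4 the pan-endocrine median went from 229 to 6.17 and from 295 to 18.4 in the diabetogenic and protected arm, while the acinar median went from 60.5 to 9.51 in the diabetogenic and from 54.0 to 89.7 in the protected arm.

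Markers of other cells that a cut could include had arm estimates over the 3 days with medians of −0.57 (endothelium) to 0.04 (red blood cell, 1 gene tested), against −1.59 for the acinar genes. The median of the 1483 genes with a mean intensity of 20 or more was −0.68. These markers were dimmer, with untreated medians of 1.95 (red blood cell) to 7.38 (endothelium) against 75.4 for the acinar genes. Dim genes show less than their true change on this scale. The pan-endocrine median was −0.60 over the 3 days and −1.13 on day 4. There were 0 calls in limma in each list, where 0.104% of all genes passed. The 7 tested duct genes summed to 77.6 in diabetogenic and 253 in protected islets of day 4, and to 246 and 200 on day 8, mostly through the keratins Krt18 and Krt7. The 6 macrophage genes summed to 41.5 untreated, 129 to 1242 in the diabetogenic arm and 187 to 1435 in the protected arm, mostly through Csf1r. On day 4 they were at 139 in diabetogenic and 1435 in protected islets, and on day 8 at 1242 and 959. The 8 stromal genes summed to 57.3 to 331 in the diabetogenic arm and 69.6 to 683 in the protected arm, against 61.8 untreated. The 4 B cell markers, listed for lymph node tissue, summed to 10.6 to 19.4 on all arrays. The 5 endothelial genes summed to 18.4 to 60.1 and 34.8 to 84.5, and the 5 T cell genes to 19.2 to 48.5 and 29.4 to 72.1, in the diabetogenic and protected arms. The part of cell composition in the acinar values was not tested.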

How the data were processed

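The authors' deposited table gives a linear intensity for each of 45101 probe sets on 8 arrays. Sources used here do not state how probes were summarised or arrays scaled. Per the labels' protocols, RNA was amplified before labelling, which favours the 3′ ends of transcripts.

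Gene names came from a 2016 annotation: apart from control probe sets, which were not tested, 34945 probe sets carry 1 symbol and 932 several, and the other 9224 (controls included) had no name here. A probe set was tested if it reached the array median on at least 2 arrays, and the brightest per gene was used. The scale of analysis was log2(intensity + 2.155), where 2.155 is the median over arrays of the 25th percentile. Array medians lay within 0.21 on that scale, so the deposited scale was kept.

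All 16396 genes were fitted by limma (version 3.58.1, R 4.3.3), using lmFit and a trended eBayes, with Benjamini-Hochberg adjustment and a threshold of 0.05. The arm comparison used days 3, 4 and 8 and took day as a block. A fit of all 8 arrays set each arm against untreated, and the 7 arrays of injected mice gave the change per day. In the matched-day fit a gene's own spread had 2 degrees of freedom against 27.1 from the trend, so standard errors rest mostly on genes of like level. P-values measure the spread between these arrays only. Each fit was tested on simulated data with independent normal errors. Those data held no differences between whole arrays, so that test does not cover the array differences described above. The members and lists were chosen with earlier results of these data known.

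The naming rule took all 23 members, with every array's value for the brightest of each class, and the 2 brightest members of other lists; full values of Cela1 and ranges of Prss3 were added after values were seen. Alternatives were 2 pseudocounts, 3 normalizations, 2 filters, other choices of probe set, no block and leaving out arrays.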

Additional observations from a re-analysis of the deposited data

Results flagged for a closer look

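On the 4 protected arrays, 6 of the 23 acinar genes had 1 array far from the other 3, by a gap of more than 0.829 of their range. Chance alone flags about 1 group in 20 where values are normally spread, and the 4 arrays are different days, not repeats. The rule was applied to linear intensities, and the share of all genes it flags is not given here. The count of 6 therefore has no background to be set against. The protected array of day 4 stood above the rest for Cela3b (2710, next 772), Ctrl (1122, next 238), Prss3 (89.7, next 9.16), Sycn (359, next 111) and Zg16 (248, next 101). For Amy1 it was the protected array of day 3 (39.5, next 2.89).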

How the results depend on the processing

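Among the comparisons, 232 recomputed values kept their side of the threshold or stayed within 1.5 times the count or within the spread, 10 moved further and 2 turned direction. Part of the 232 could not move, since leaving out an array of 1 arm does not change the other arm's estimate against untreated. The spread was wide, at 1.63 for the arm difference. Its median of −0.83 after cyclic loess, against −1.59, thus counted as kept. The number of acinar genes passing in the matched-day comparison was 0 in the main fit, 2 with the filter at 4 arrays (Cpb1 and Pla2g1b), and 0 to 7 when 1 day pair was left out. Without the day block (no replicate block, arms unpaired) it stayed at 0, with the same median of −1.59, and every other alternative named in the processing gave 0. The median difference in slope ranged from −2.27 to 0.20 per day as single arrays were left out, so its direction is not settled. The number of genes at least 2-fold below untreated on diabetogenic day 3 was 0 with the mean of probe sets and 0 with probe sets without an x or s suffix. On protected day 3 it was 4 with quantile normalization and 0 with either of those probe set choices. On diabetogenic day 4 it was 6 with cyclic loess, against 22. Single genes turned direction in the arm difference: Zg16 to 0.38 with probe sets without an x or s suffix (chosen after the data were seen), and Amy1 to −0.058 with a pseudocount of 0.539 and −0.010 with median centring. Leaving out 1 day pair gave −1.85 to 0.049 for Prss3, −0.63 to 0.24 for Spink1, −0.24 to 0.25 for Amy1 and −0.59 to 0.13 for Bhlha15. The cause was not tested. Ptf1a had a mean intensity of 4.02, close to the array medians of 3.14 to 3.96, and Gp2 and Bhlha15 had 7.03 and 7.70, above those medians. Prss3, Spink1 and Amy1, which turned direction when a day pair was left out, had means of 18.7, 13.2 and 18.7.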
